A study of Mus musculus with 7 samples.

Results

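The 40 autophagy machinery genes described here were chosen by symbol from a list of core autophagy genes, and all 40 were among the 28666 genes in the deposited expression table. They were followed in bone marrow-derived dendritic cells (BMDCs) sorted by flow cytometry into an immature group of 3 libraries and a mature group of 4 libraries. The BMDCs came from bone marrow of female C57BL/6 mice of 6 to 8 weeks, cultured for 7 days with GM-CSF and IL-4, and had shared a Transwell chamber with MC38, a colon carcinoma cell line of the mouse. The study's text describes the profiled cells as sorted 24 h after treatment with DON (6-diazo-5-oxo-L-norleucine, a glutamine antagonist), while its scheme of the sort names MC38 cells given DMSO or 5 µM DON, and the labels record neither agent for single libraries. The groups are therefore compared by maturation stage alone. In other samples the study calls dendritic cells with CD80 and CD86 mature, and the markers of this sort were not given separately. The study states that its data come in general from independent biological experiments, but the labels do not tie single libraries to cultures or animals, so p-values measure the spread between these libraries. GM-CSF cultures hold macrophage-like cells beside dendritic cells, which limits them as a model of tissue dendritic cells.

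Macroautophagy encloses cytoplasm in a double membrane, the autophagosome, and delivers it to lysosomes. The ULK kinase complex starts the process, the class III PI3-kinase complex marks the membrane with the lipid PI3P, and ATG9A, ATG2 and VMP1 help supply lipid to the growing membrane. A ubiquitin-like cascade then attaches LC3 and GABARAP proteins, together the ATG8 family, to that membrane, where cargo receptors bind them. In dendritic cells this machinery is known for feeding antigen to MHC class II compartments, and parts of it for LC3-associated phagocytosis.

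Total counts ran from 54846746 to 67973086 per library, and single members held 347 to 48872 counts, so counting error was small for each of them. The members together took 0.333% to 0.339% of the counts in the immature libraries and 0.359% to 0.363% in the mature ones. Of 8 dendritic cell markers, Flt3, Zbtb46, Ccr7 and Fscn1 were higher in mature BMDCs by the criteria used below. In FPKM (fragments per kilobase of transcript scaled to the library, a level per length), Ccr7 was at 86.5 to 92.04 in immature and 1147 to 1283 in mature libraries. Itgax, the gene of CD11c, went the other way, at 240.03 to 261 FPKM in immature and 161 to 227 FPKM in mature libraries. The sum of the list, most of it Cd74, was 4388 to 4536 FPKM in immature and 6726 to 8804 FPKM in mature libraries. In immature libraries Flt3 was at 0.04 to 0.09 FPKM and Zbtb46 at 2.53 to 2.83 FPKM. The macrophage markers Csf1r and C1qa were at 107 to 115 and 66.1 to 74.4 FPKM there. H2-Aa, on the dendritic cell list, was at 307 to 317 FPKM in the same libraries. Flt3 was low in mature libraries too, at 0.75 to 1.14 FPKM, and Zbtb46 was at 10.2 to 12.65 FPKM. All 8 macrophage markers were lower in mature BMDCs, with sums of 496 to 517 against 115 to 144 FPKM, and all 10 cardiac muscle markers were higher, with sums of 1.87 to 2.13 FPKM in immature libraries, 12.5 in mature replicate 1 and up to 309 in the other mature libraries. Mature replicate 3 stood apart from its group. The median chi-square between its counts and those of another mature library was 17.7 to 25.6. Every other pair within a group gave 3.83 to 5.27, where sampling alone gives 0.455. Pairs were scaled by total counts alone, so a difference in scaling between libraries also enters these values. In a sorted bulk sample, fewer cells of a type and less RNA per cell cannot be told apart.

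Of the 40 members, all of which entered the test, 4 passed both criteria of the study, a log2 fold change of 1 or more in either direction and an adjusted p under 0.05 (edgeR quasi-likelihood test, Benjamini-Hochberg adjustment over the 17461 genes tested). This was 10% of the members, against 23.1% of all genes tested. Uvrag was the 1 member higher in mature BMDCs, where 13.2% of all genes passed, and Vmp1, Atg3 and Atg7 were the 3 lower, where 9.95% passed. With the adjusted p alone, 20 members passed, 9 higher and 11 lower, beside 46.1% of all genes (23.2% higher and 22.9% lower), which is near the members' share of 50%. Leaving out 1 library gave 12 to 26 members, beside 35.4% to 57.4% of all genes. The higher ones numbered 3 without immature replicate 2 or 3, 4 without immature replicate 1 and 14 without mature replicate 3. With replicate number as a block 14 members passed, 3 of them higher, beside 37% of all genes. The groups did not overlap in CPM (counts scaled to library size, here by TMM) for 21 members, with the mature libraries above for 8 and below for 13, beside 52.1% of all genes (25.4% above and 26.7% below). The median log2 fold change was -0.01 over the members and 0.05 over all genes tested, and the median absolute log2 fold change was 0.33 against 0.57. An absolute value under 0.5 was found for 26 members, and the 14 at or above it each passed the adjusted p.

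**Figure D1:**
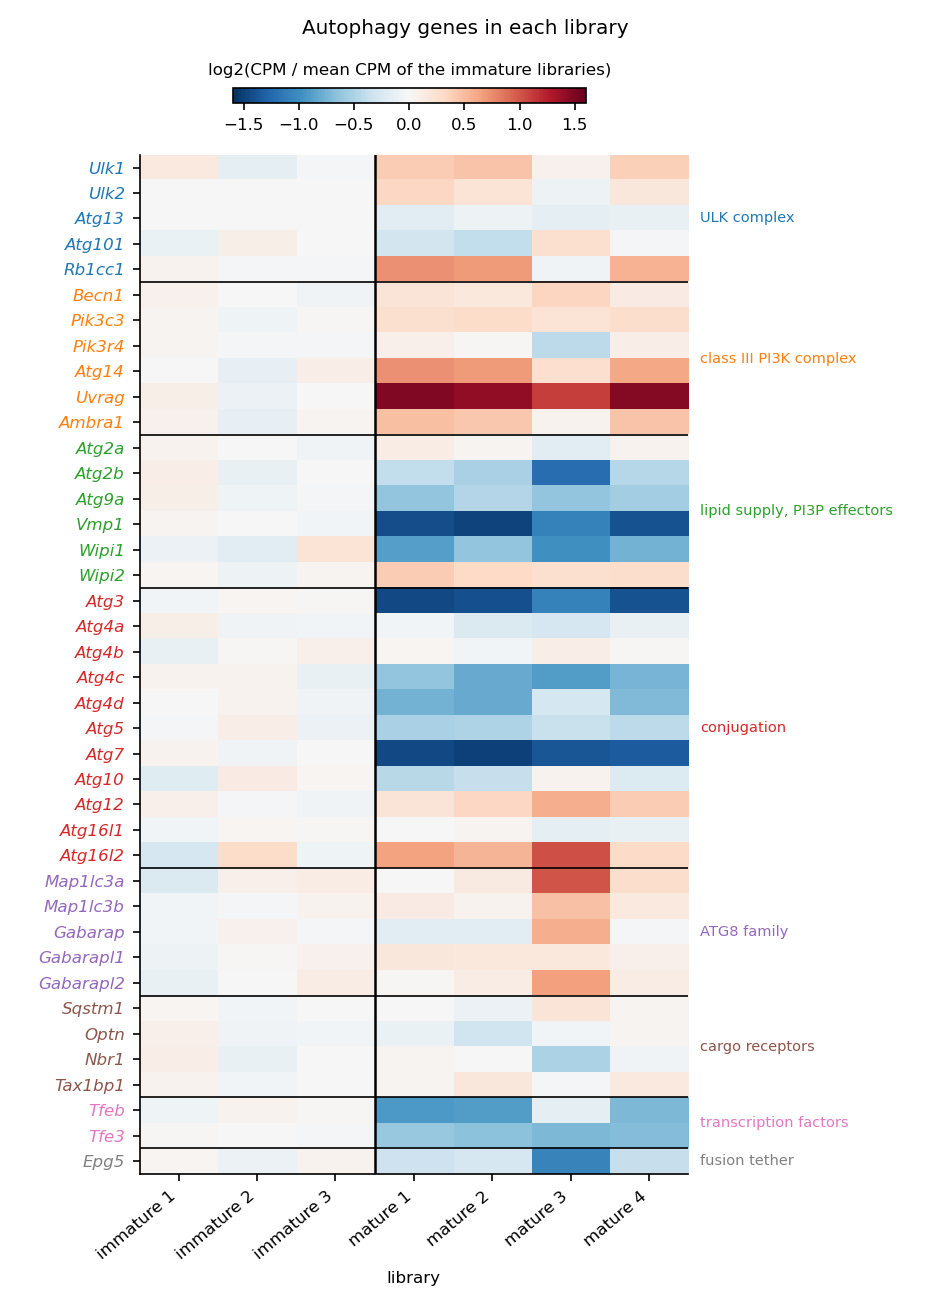
Heat map of the 40 members (rows, ordered by role) in the 3 immature and 4 mature libraries (columns), coloured by log2 of CPM over the mean CPM of the immature libraries. Uvrag is red in the 4 mature columns, Vmp1, Atg3 and Atg7 are blue in them, and mature replicate 3 departs from its group in many rows.

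**Figure D2:**
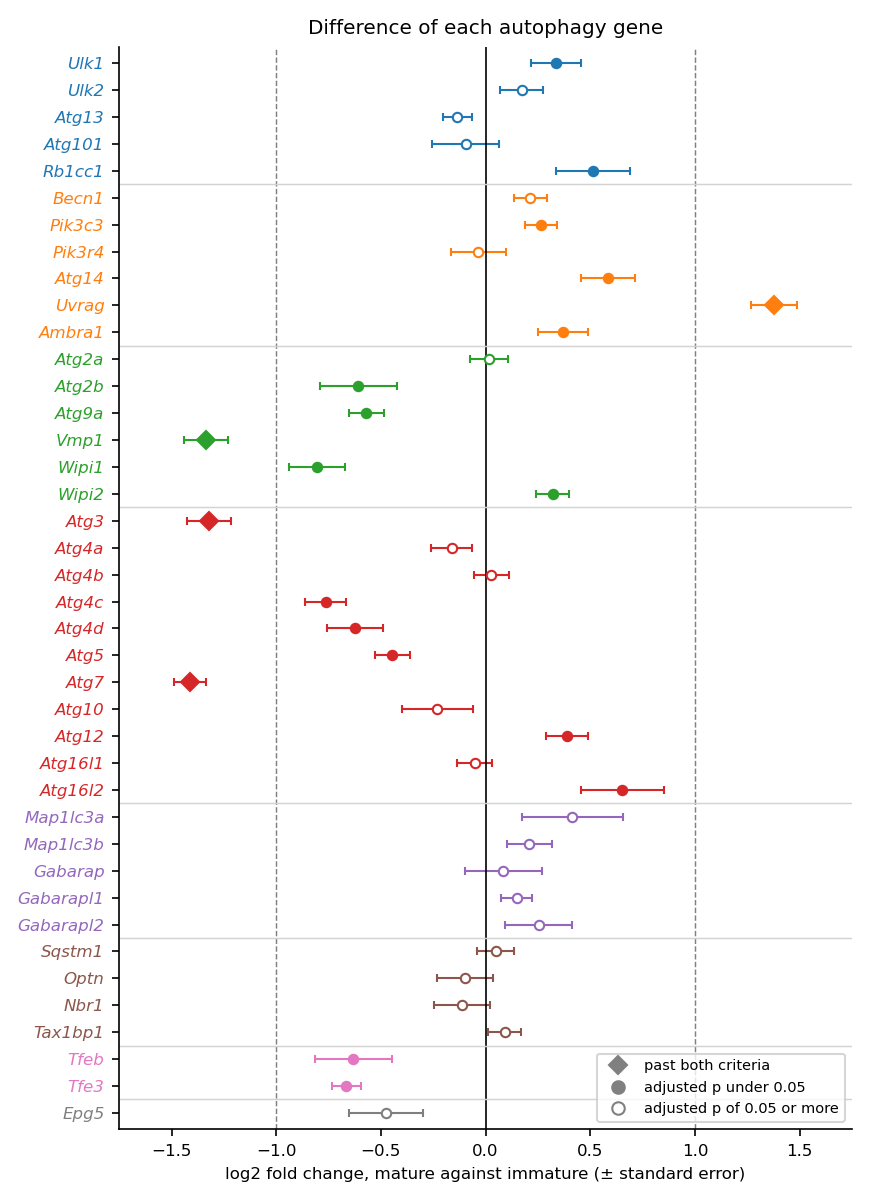
Log2 fold change, mature over immature, of each member with its standard error as a bar, coloured by role, with diamonds for genes past both criteria, filled circles for those past the adjusted p alone, open circles for the rest, and dashed lines at the criterion of 1 in either direction. Only Uvrag (1.38), Vmp1 (-1.34), Atg3 (-1.32) and Atg7 (-1.41) lie beyond the lines.

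The promoters of 3 of the 4 called members are shown because their genes moved by similar amounts in opposite directions and because transcription factors of the TFEB family, themselves among the members, read a short E-box. The sequences are RefSeq's for GRCm38.p6, run 5′ to 3′ on the gene's strand up to the base before the start site or before the deposited gene model, and carry in capitals the motifs found by search on both strands: the E-box core CACGTG, the antioxidant response element TGACNNNGC and the NF-kB site. The region for Uvrag is chr7:99141145-99141394 on the minus strand, that for Vmp1 is chr11:86683837-86684086 on the minus strand, and that for Atg3 is chr16:45158579-45158784 on the plus strand.
Uvrag: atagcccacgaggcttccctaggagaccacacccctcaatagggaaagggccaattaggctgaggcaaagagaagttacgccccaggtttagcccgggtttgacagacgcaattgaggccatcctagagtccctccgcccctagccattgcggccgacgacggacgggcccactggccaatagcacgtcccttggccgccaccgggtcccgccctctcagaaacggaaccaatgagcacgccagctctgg
Vmp1: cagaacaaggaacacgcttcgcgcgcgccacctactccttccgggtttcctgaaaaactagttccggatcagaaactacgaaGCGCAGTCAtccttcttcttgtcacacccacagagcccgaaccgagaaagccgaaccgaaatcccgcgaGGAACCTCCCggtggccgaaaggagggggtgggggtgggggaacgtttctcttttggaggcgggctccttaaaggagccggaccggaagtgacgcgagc
Atg3: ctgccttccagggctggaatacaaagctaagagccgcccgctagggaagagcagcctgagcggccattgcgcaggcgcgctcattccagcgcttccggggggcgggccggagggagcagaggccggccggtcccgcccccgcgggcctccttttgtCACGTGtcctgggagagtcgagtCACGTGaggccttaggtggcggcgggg

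In Atg3 the capitals mark the E-box core in a pair of places, from -94 to -89 and from -71 to -66 relative to the RefSeq start. In Vmp1 they mark an antioxidant response element from -168 to -160 and an NF-kB site from -99 to -90. The window of Uvrag held none of the 3 motifs. Of the 40 members, 33 had a promoter of 300 bases in the table, from 250 before to 50 after the start. The E-box core was found for 4 of those 33 (12.1%), namely Atg3, Atg5, Atg7 and Atg14, against 8.09% of all 27025 genes with a promoter, and the tabled start of Atg7 lies 27999 bases inside the deposited gene. The antioxidant response element was found for 5 of the 33 (15.2%), against 14% of all genes, and the NF-kB site for 6 of the 33 (18.2%), against 9.55%. A gene counts here when any of its promoters holds the motif. Among the genes with an E-box, Atg3, Atg5 and Atg7 were lower and Atg14 was higher in mature BMDCs. A match is a description of the letters and not a site in use.

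Initiation is the task of the ULK complex, made of the kinases ULK1 and ULK2, the scaffolds ATG13 and FIP200 (encoded by Rb1cc1), and ATG101. Of its 5 genes, 2 passed the adjusted p (40%, against 46.1% of all genes tested). Both were higher in mature BMDCs, and none of the 5 reached a log2 fold change of 1. Rb1cc1 was measured at 44.0, 41.4 and 42.1 CPM in immature libraries 1 to 3, and at 70.7, 68.4, 40.8 and 62.8 CPM in mature libraries 1 to 4. Mature replicate 3 lay below all 3 immature libraries and the other 3 mature libraries lay above them, so the groups overlapped. The log2 fold change was 0.51 (SE 0.18, adjusted p = 0.0415 by edgeR's quasi-likelihood test), and 0.69 without mature replicate 3 (adjusted p = 1.12e-05, same test). The call of Rb1cc1 held under 5 of 15 alternative settings, with adjusted p up to 0.123. Ulk1 rose from 39.1 ± 4.08 (SD, n = 3) to 49.3 ± 5.75 CPM (SD, n = 4), or 0.34 as a log2 fold change with an adjusted p of 0.0476 by edgeR, and its call held under 7 of the 15. The remaining genes of the complex did not pass, with log2 fold changes of 0.17 for Ulk2, -0.13 for Atg13 and -0.09 for Atg101.

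The lipid kinase VPS34 (Pik3c3), its partners VPS15 (Pik3r4) and Beclin 1 (Becn1), and the regulator AMBRA1 work with ATG14 in nucleating the autophagosome or with UVRAG in endosomal and lysosomal trafficking. Of these 6 genes, 4 passed the adjusted p (66.7%, against 46.1% of all genes tested). Each of the 4 was higher in mature BMDCs, as were 23.2% of all genes.

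Uvrag (ENSMUSG00000035354, chr7:98885021-99141141, minus strand, GRCm38) stood at 96.1, 84.1 and 89.8 CPM in the immature libraries and at 251, 241, 194 and 249 CPM in the mature ones. The lowest mature library, replicate 3, was well above the highest immature one. Its mean rose 2.60-fold, from 89.96 ± 6.01 (SD, n = 3) to 234 ± 26.6 CPM (SD, n = 4), with a log2 fold change of 1.38 (SE 0.11, adjusted p = 1.62e-05 by edgeR). Per length, Uvrag went from 8.74 to 24.6 FPKM and ranked sixth among the members. The criteria held in all 15 alternative settings, with log2 fold changes of 1.33 to 1.49.

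Atg14 was measured at 17.8, 16.1 and 19.0 CPM in immature and 29.1, 28.2, 21.3 and 27.1 CPM in mature libraries. The groups did not overlap, with mature replicate 3 the closest to the immature libraries. Its log2 fold change was 0.58 (SE 0.13, adjusted p = 0.00592 by edgeR), and the call held in all 15 alternatives. Ambra1 and Pik3c3 rose by less, with log2 fold changes of 0.37 (adjusted p = 0.034 by edgeR) and 0.26 (adjusted p = 0.0193 by edgeR). Their calls held under 8 and 11 of the 15 alternatives. Becn1 was at 98.3 to 107 CPM in immature and 112 to 130 CPM in mature libraries, which did not overlap. The log2 fold change of 0.21 missed the threshold (adjusted p = 0.0571 by edgeR), and passed it under 7 of the 15 alternatives. Pik3r4 had a log2 fold change of -0.03 (adjusted p = 0.854 by edgeR), a sign that flipped to 0.08 under upper-quartile scaling. Whether Uvrag or Atg14 differed in change from the core kinase genes was not tested.

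Lipid supply and reading of PI3P were represented by 6 genes, 4 of them lower and 1 higher in mature BMDCs by the adjusted p. Together these were 83.3% of the 6, against 46.1% of all genes tested (22.9% lower and 23.2% higher). VMP1 is an endoplasmic reticulum scramblase, ATG9A a scramblase carried by vesicles, and ATG2A and ATG2B are bridges for lipid transfer. WIPI1 and WIPI2 bind PI3P, and WIPI2 recruits ATG16L1.

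Vmp1 (ENSMUSG00000018171, chr11:86583865-86683836, minus strand, GRCm38) was at 118, 114 and 111 CPM in the immature libraries and at 42.9, 40.8, 53.9 and 43.4 CPM in the mature ones. Every mature library lay below 54 CPM and every immature one above 110, with mature replicate 3 the highest of its group. The mean fell from 114 ± 3.22 (SD, n = 3) to 45.3 ± 5.89 CPM (SD, n = 4), 2.53-fold, with a log2 fold change of -1.34 (SE 0.11, adjusted p = 1.44e-05 by edgeR). The alternatives gave -1.41 to -1.17, all past the criteria. Mir21a and Gm11478 overlap Vmp1 on the same strand, and reached at most 1 and 141 counts in a library.

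Wipi1 was the next lower gene of the step, at 18.2, 17.3 and 22.7 CPM in immature and 10.6, 12.5, 9.85 and 11.5 CPM in mature libraries. No mature value reached the lowest immature one, and the log2 fold change was -0.81 (SE 0.13, adjusted p = 0.00121 by edgeR). Its paralogue Wipi2 moved the other way, from 53.2 ± 2.51 (SD, n = 3) to 66.5 ± 3.17 CPM (SD, n = 4), with a log2 fold change of 0.32 (adjusted p = 0.00954 by edgeR), a call lost under 2 of the 15 alternatives (without immature replicate 2 and with a replicate block). Their standings per length also differed, since Wipi1 fell from 3.85 to 2.38 FPKM while Wipi2 went from 4.43 to 5.97 FPKM.

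Atg9a was at 58.3, 51.9 and 53.8 CPM in immature and 35.2, 39.5, 35.3 and 37.2 CPM in mature libraries, again without overlap. The log2 fold change of Atg9a was -0.57 (SE 0.084, adjusted p = 0.000592 by edgeR). Atg2b was at 63.0, 53.9 and 58.4 CPM against 44.6, 40.7, 25.2 and 42.8 CPM, so that mature replicate 3 was the lowest of the 7 libraries. Its change on the log2 scale was -0.61 (SE 0.18, adjusted p = 0.0246 by edgeR) and -0.43 without mature replicate 3, and the call held under 10 of the 15 alternatives. The gene overlaps Gskip on the other strand, which was itself lower (log2 fold change -0.36) at up to 2347 counts. Its paralogue Atg2a had a log2 fold change of 0.02 (adjusted p = 0.907 by edgeR), and its sign changed when replicate number was entered as a block (-0.0058).

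The conjugation system held 2 of the 3 called genes that fell. ATG7 is the E1-like enzyme that activates both ATG12 and the ATG8 proteins, ATG3 is the E2-like enzyme for ATG8 proteins and ATG10 that for ATG12. The ATG12–ATG5 conjugate with ATG16L1 acts as the E3-like ligase, and the ATG4 proteases prime ATG8 proteins and remove them from lipid. Of 11 genes, 5 were lower and 2 higher in mature BMDCs by the adjusted p (63.6% together, against 46.1% of all genes tested).

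Atg7 (ENSMUSG00000030314, chr6:114643097-114860614, plus strand, GRCm38) was at 142, 131 and 136 CPM in the immature libraries and at 49.9, 48.4, 52.8 and 53.9 CPM in the mature ones. All mature libraries fell within a narrow span far below the immature ones, mature replicate 3 included. The mean fell 2.66-fold, from 136 ± 5.63 (SD, n = 3) to 51.2 ± 2.55 CPM (SD, n = 4), with a log2 fold change of -1.41 (SE 0.076, adjusted p = 1.58e-06 by edgeR). This was the largest fall among the 40 members, and the alternatives gave -1.44 to -1.19.

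Atg3 (ENSMUSG00000022663, chr16:45158785-45188538, plus strand, GRCm38) was at 79.0, 83.4 and 82.4 CPM in the immature libraries and at 30.0, 30.9, 38.7 and 31.1 CPM in the mature ones. Mature replicate 3 was the highest of its group and still below 40 CPM. The mean fell from 81.6 ± 2.29 (SD, n = 3) to 32.7 ± 4.07 CPM (SD, n = 4), with a log2 fold change of -1.32 (SE 0.10, adjusted p = 1.41e-05 by edgeR). The alternatives gave -1.39 to -1.14, all past the criteria. The E1-like and the E2-like gene of ATG8 lipidation were thus both lower, by similar amounts, while the E2-like gene for ATG12, Atg10, had a log2 fold change of -0.23 (adjusted p = 0.298 by edgeR). Whether Atg10 differed from Atg3 or Atg7 in its change was not tested.

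**Figure D3:**
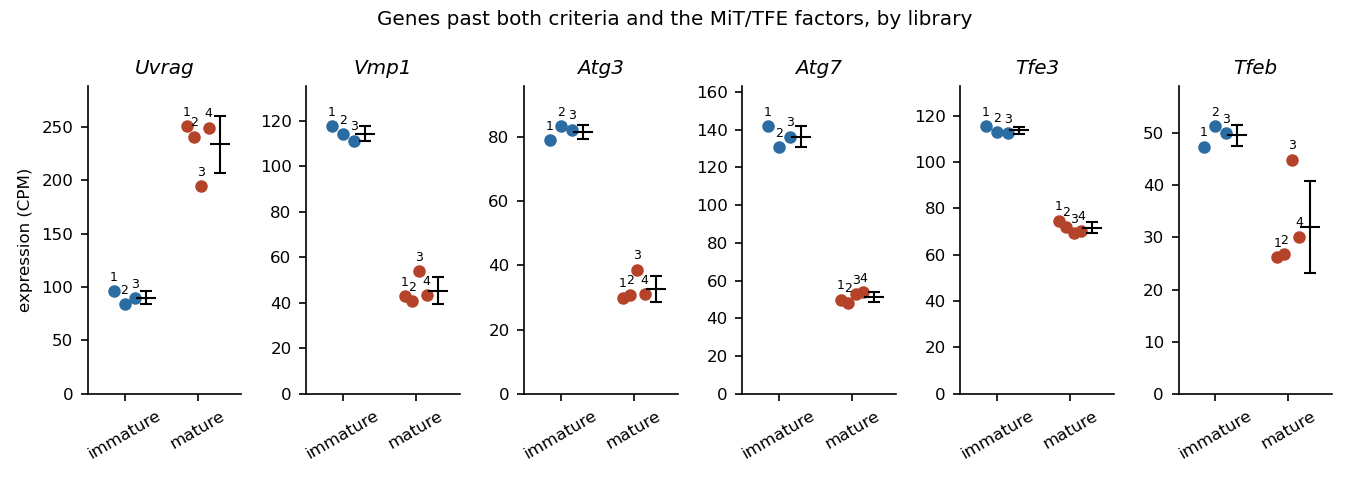
CPM of Uvrag, Vmp1, Atg3, Atg7, Tfe3 and Tfeb in each library (points, numbered by replicate), with the group mean and SD (bars), for 3 immature and 4 mature libraries. The groups do not overlap in any panel, with Uvrag at 84.1 to 96.1 CPM in immature and 194 to 251 CPM in mature libraries, and Atg7 at 131 to 142 against 48.4 to 53.9 CPM.

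Within the ligase, the gene products are bound together but their transcripts went different ways. Atg5 fell from 67.1 ± 4.78 (SD, n = 3) to 49.3 ± 2.53 CPM (SD, n = 4), or -0.45 as a log2 fold change (adjusted p = 0.0024 by edgeR). Atg12 rose by 0.39 on the log2 scale (adjusted p = 0.0127 by edgeR), a call held under 12 of the 15 alternatives, with adjusted p up to 0.0736. Atg16l1 had a log2 fold change of -0.05 (adjusted p = 0.652 by edgeR), which turned to 0.06 under upper-quartile scaling. Atg16l2, a paralogue of Atg16l1, was at 7.29, 10.8 and 8.40 CPM in immature and at 13.7, 12.9, 17.9 and 10.9 CPM in mature libraries, which separated by a narrow margin. On the log2 scale the change was 0.65 (SE 0.20, adjusted p = 0.0263 by edgeR), and the call held under 13 of 15 alternatives. It was the lowest member per length, at 0.907 and 1.53 FPKM. Fchsd2, on the opposite strand of the same locus, rose by 1.64 on the log2 scale and reached 5232 counts, and without a stated strand setting in the counting the reads of the pair cannot be told apart.

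Among the ATG4 proteases, Atg4c and Atg4d fell and Atg4a and Atg4b did not pass. Atg4c was at 28.7, 28.8 and 25.6 CPM in immature and 17.95, 15.8, 15.0 and 16.5 CPM in mature libraries, well apart, with a log2 fold change of -0.76 (SE 0.099, adjusted p = 0.000287 by edgeR). Atg4d was at 46.6, 48.8 and 45.1 CPM against 27.7, 26.7, 38.5 and 28.6 CPM, where mature replicate 3 was nearest to the immature group. The fitted log2 fold change was -0.62 (SE 0.13, adjusted p = 0.00491 by edgeR), and its opposite-strand neighbour Kri1 was also lower, at -0.43. ATG4B, the protease with the broadest activity, had a gene at 46.1 ± 3.16 (SD, n = 3) and 47.0 ± 2.09 CPM (SD, n = 4), with a log2 fold change of 0.03 that became -0.03 without immature replicate 1. Atg4b overlaps Thap4 on the other strand, which reached 2522 counts with a log2 fold change of 0.10. Atg4a had a log2 fold change of -0.16 (adjusted p = 0.215 by edgeR).

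The substrates of that cascade were among the most abundant members per length. None of the 5 ATG8 family genes passed the adjusted p. Gabarap was the highest member per length, at 236 FPKM in immature and 268 FPKM in mature BMDCs. In CPM it was at 480, 521 and 487 in immature and 438, 437, 744 and 485 in mature libraries, with mature replicate 3 far above the rest. The log2 fold change of Gabarap was 0.09 (SE 0.19, adjusted p = 0.739 by edgeR), and -0.10 without that library (adjusted p = 0.159 by edgeR).

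Gabarapl1 was at 114, 123 and 127 CPM against 138, 136, 136 and 128 CPM, separated by a small gap. Its log2 fold change of 0.15 missed the threshold (adjusted p = 0.133 by edgeR), and passed it under 6 of the 15 alternatives. For the other family genes the log2 fold changes were 0.41 for Map1lc3a, 0.21 for Map1lc3b and 0.25 for Gabarapl2 (adjusted p = 0.196, 0.145 and 0.23 by edgeR). Each of the 3 had its highest value in mature replicate 3, and without it the values were 0.17, 0.14 and 0.11. Map1lc3b passed the adjusted p under 4 of the 15 alternatives, Map1lc3a and Gabarapl2 under 0. As a share of the family's summed FPKM, Gabarap made up 71.6%, 71.7% and 69.3% in immature libraries and 66.3%, 66.1%, 73.2% and 68.6% in mature ones. The means of that share, 70.9% ± 1.33 (SD, n = 3) and 68.6% ± 3.28 (SD, n = 4), differed by less than the pooled SD of 2.68 percentage points.

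None of the 4 cargo receptor genes passed either. Sqstm1, which encodes p62, was second per length at 193 and 214 FPKM, and stood at 736 ± 17.5 (SD, n = 3) and 760 ± 66.7 CPM (SD, n = 4), with a log2 fold change of 0.05 (SE 0.088, adjusted p = 0.695 by edgeR). Tax1bp1 and Nbr1, which encode further ubiquitin-binding receptors, had log2 fold changes of 0.09 and -0.11 (adjusted p = 0.387 and 0.532 by edgeR), and that of Nbr1 was 0.02 without mature replicate 3. Optn was among the lowest members, at 1.97 and 1.99 FPKM, with a log2 fold change of -0.10 (adjusted p = 0.587 by edgeR) that became 0.01 under upper-quartile scaling. Epg5, a tether for fusion with lysosomes, was at 40.4, 37.2 and 41.2 CPM in immature and 31.6, 32.7, 18.9 and 30.6 CPM in mature libraries. These groups did not overlap, yet the log2 fold change of -0.48 missed the threshold (adjusted p = 0.0566 by edgeR), and without mature replicate 3 it was -0.30 and passed it (adjusted p = 0.00376 by edgeR).

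Both transcription factors on the list fell. TFEB and TFE3 are helix-loop-helix factors that activate lysosomal and autophagy genes through E-boxes, and are held in the cytoplasm when mTORC1 phosphorylates them. Tfe3 was at 115, 113 and 112 CPM in immature and 74.6, 72.1, 69.3 and 70.5 CPM in mature libraries, widely apart with little spread. On the log2 scale it changed by -0.67 (SE 0.068, adjusted p = 6.73e-05 by edgeR). Tfeb was at 47.4, 51.4 and 50.1 CPM against 26.2, 26.8, 44.95 and 30.2 CPM, and mature replicate 3 sat just under the immature libraries. Its log2 fold change was -0.63 (SE 0.18, adjusted p = 0.0209 by edgeR) and -0.82 without that library (adjusted p = 1.11e-05 by edgeR), with the call held under 12 of the 15 alternatives.

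The departures of mature replicate 3 went with transcript length. Spearman's rho was taken across the 40 members between exon length and the log2 ratio of a library to the others of its group. It was -0.53 for mature replicate 3. For mature replicates 1, 2 and 4, whose reference includes mature replicate 3, it was 0.52, 0.52 and 0.30. For immature replicates 1, 2 and 3 it was 0.38, -0.40 and -0.13, so the members followed length in other libraries as well. Over all 17436 tested genes with a length the rho for mature replicate 3 was -0.37. A tilt of the same sign was thus seen across the table. Over the same genes the rho was 0.15, -0.088 and -0.038 for immature replicates 1, 2 and 3. Among the 10 shortest members, with 1181 to 3351 exonic bases, 8 had more CPM in mature replicate 3 than replicates 1, 2 and 4 had on average (median log2 ratio 0.37). Among the 10 longest, with 8469 to 14690 bases, 1 was higher (median -0.25). With a length trend entered as an offset, 23 members passed the adjusted p, 11 higher and 12 lower, beside 49.6% of all genes. The 4 called members stayed past the criteria. The part of RNA quality in this tilt was not tested.

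**Figure D4:**
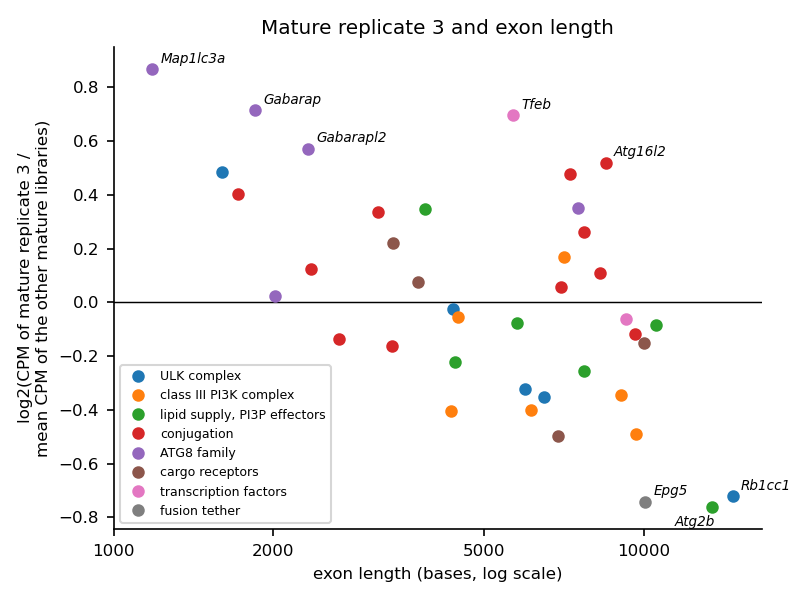
Log2 of the CPM in mature replicate 3 over the average of replicates 1, 2 and 4 for each of the 40 members (y axis) against its exon length in bases (x axis, log scale). The points go from mostly above 0 among the shortest members (8 of 10) to mostly below 0 among the longest (1 of 10 above).

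The macrophage markers fell in the same libraries as Vmp1, Atg3, Atg7, Tfeb and Tfe3, and the part of a lower macrophage share in those falls was not tested. The cardiac muscle markers were high in mature replicates 2, 3 and 4, while Tnni3 held 11.2 of their 12.5 FPKM in mature replicate 1. Uvrag and Atg14 were higher in all 4 mature libraries, at 251 and 29.1 CPM in mature replicate 1. The part of the cardiac muscle markers in these rises was not tested. With mature replicate 1, the library with the lowest sum of these markers in its group, as the only mature library, the log2 fold changes were 1.504 for Uvrag and 0.75 for Atg14. Epithelial markers, which could report carry-over of MC38 cells, summed to 17.3 to 21.3 FPKM in immature and 13.9 to 21.7 FPKM in mature libraries. Cdh1, at 9.76 to 11.6 FPKM in every library, was the largest part of each sum. Epcam was at 0.07 to 0.16 FPKM in immature and 0.31 to 0.72 FPKM in mature libraries. Krt8 was at 2.83 to 4.90 FPKM in immature and 1.88 to 5.29 FPKM in mature libraries. Carry-over of MC38 cells was not tested.

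The wider pathway was read from 79 further genes in 5 lists, all of them tested. By the adjusted p, 56 of the 79 passed, 21 higher and 35 lower in mature BMDCs (70.9%, against 46.1% of all genes). By the criteria 20 passed, 8 higher and 12 lower (25.3%, against 23.1%). The share of all genes past the adjusted p depends on expression. It was 57.3% once weakly expressed genes were dropped (3 libraries required to reach FPKM 1). The share of the 79 under that filter was not read. The lists were also chosen with earlier results of these data known, so these shares are not a test of enrichment. The median log2 fold change over the 79 was -0.26, against 0.05 over all genes tested.

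Among 12 further core genes and PI3-kinase partners, 7 were lower and 3 higher by the adjusted p (83.3%, against 46.1% of all genes). The 5 past the criteria (41.7%, against 23.1% of all genes) were all lower. Bcl2, which encodes a Beclin 1-binding inhibitor of apoptosis, fell from 28.5 ± 2.18 (SD, n = 3) to 4.63 ± 0.468 CPM (SD, n = 4), or -2.62 as a log2 fold change (SE 0.12, adjusted p = 7.15e-07 by edgeR). Tmem41b, whose product is a scramblase that works beside VMP1, was at 36.1, 35.3 and 31.9 CPM in immature and 17.1, 14.8, 14.9 and 16.5 CPM in mature libraries. Its log2 fold change of -1.12 (SE 0.096, adjusted p = 2.23e-05 by edgeR) had the direction of Vmp1. Atg9b (-1.48), Trp53inp2 (-1.02) and Dapk1 (-1.02) completed the 5, with Atg9b at under 3 CPM in every library.

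The nutrient-sensing genes around mTORC1 and AMPK, which set the activity of the ULK complex, held most of the higher calls. Of 26 genes, 11 were higher and 7 lower by the adjusted p (69.2%, against 46.1% of all genes). By the criteria 6 were higher and 2 lower (30.8%, against 23.1% of all genes). Rptor, the gene of the mTORC1 subunit RAPTOR, was at 63.7, 57.9 and 61.8 CPM in immature and 173, 160, 127 and 166 CPM in mature libraries, without overlap, with a log2 fold change of 1.36 (SE 0.12, adjusted p = 2.34e-05 by edgeR). Deptor, the gene of an mTOR-binding inhibitor, moved the other way, from 27.4 ± 0.447 (SD, n = 3) to 5.85 ± 1.62 CPM (SD, n = 4), or -2.22 as a log2 fold change (SE 0.21, adjusted p = 3.77e-05 by edgeR). Tsc1, a part of the complex that inhibits mTORC1 through RHEB, rose by 1.30 on the log2 scale (adjusted p = 0.00124 by edgeR). Higher genes were therefore found on both the activating and the inhibiting side of mTORC1.

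Sesn3 and Castor1, of the families that sense leucine and arginine for mTORC1, rose by 2.64 and 1.99 on the log2 scale (adjusted p = 6.53e-06 and 3.31e-05 by edgeR). Sesn3 went from 9.51 ± 1.12 (SD, n = 3) to 59.1 ± 11.5 CPM (SD, n = 4). Prkaa2, a catalytic subunit gene of AMPK, was at 0.666 to 0.863 CPM in immature and 4.44 to 7.33 CPM in mature libraries. It is also expressed in muscle, and stood at 4.58 CPM in mature replicate 1 and 4.44 CPM in mature replicate 3, which had the lowest and the highest sum of cardiac muscle markers in the group. The part of muscle RNA in its rise was not tested. Rragb, a Rag GTPase gene, had 12, 10 and 0 counts in the immature libraries and 65 to 130 in the mature ones, and its fitted log2 fold change of 3.53 (adjusted p = 0.00722 by edgeR) depends on the prior count. Lamtor3, of the Ragulator complex that anchors mTORC1 to lysosomes, fell with a log2 fold change of -1.09 (adjusted p = 1.36e-05 by edgeR).

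**Figure D5:**
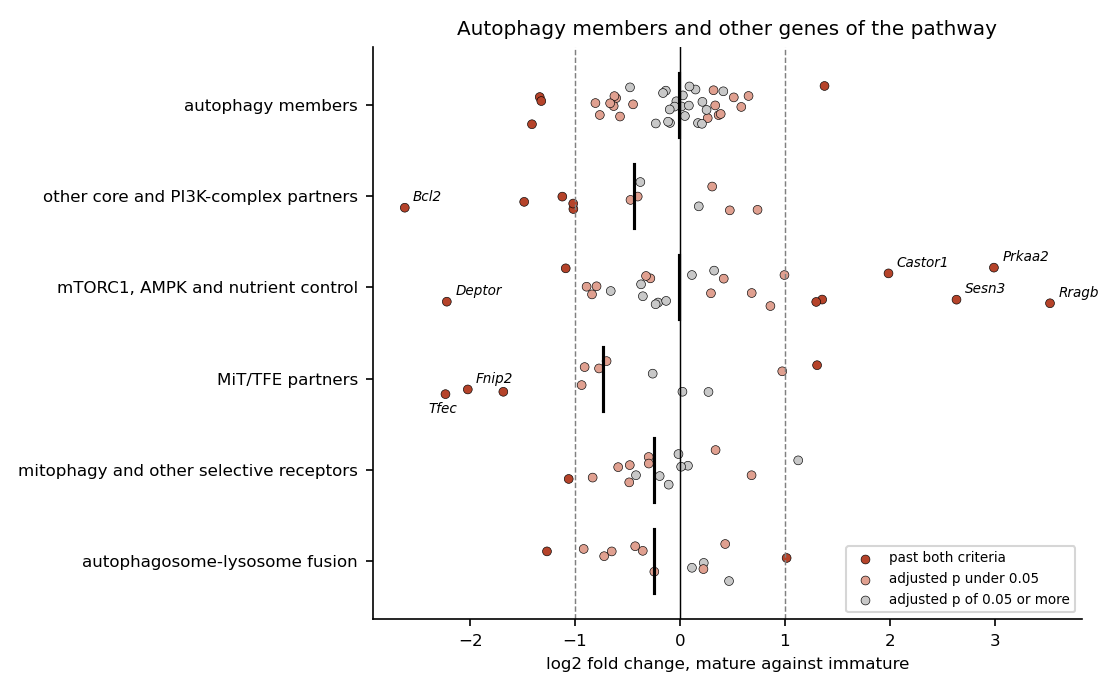
Log2 fold change, mature over immature, of the 79 further pathway genes in their 5 lists and of the 40 members (rows, 1 point a gene), with a black bar at each row's median, dark points for genes past both criteria, light red for those past the adjusted p alone and grey for the rest. Dashed lines mark 1 in either direction, and the genes farthest from 0 are named. Among the 79 further genes, 8 were past the criteria and higher in mature BMDCs. The list of mTORC1, AMPK and nutrient control, with 26 of the 79 genes, holds 6 of these 8.

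Of 12 genes that partner TFEB and TFE3, 7 were lower and 2 higher by the adjusted p (75%, against 46.1% of all genes). Mitf and Tfec, the remaining members of the TFEB family, fell with Tfeb and Tfe3. Tfec was at 72.1, 71.3 and 74.6 CPM in immature and 15.0, 14.3, 16.4 and 16.1 CPM in mature libraries, with a log2 fold change of -2.23 (SE 0.084, adjusted p = 4.07e-07 by edgeR). Mitf was at 73.5, 57.7 and 64.5 CPM against 20.3, 22.3, 16.2 and 22.3 CPM, with a log2 fold change of -1.68 (SE 0.14, adjusted p = 1.63e-05 by edgeR). All 4 genes of the family were thus lower in mature BMDCs, Tfec by the most. Fnip2, whose product binds folliculin, a regulator of these factors, fell from 176 ± 10.6 (SD, n = 3) to 43.3 ± 6.18 CPM (SD, n = 4). Foxo1, a forkhead factor gene on the same list, rose by 1.31 on the log2 scale (SE 0.11, adjusted p = 2.28e-05 by edgeR).

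Of 16 genes for mitophagy and other selective routes, 7 were lower and 2 higher by the adjusted p (56.2%, against 46.1% of all genes). Retreg1, the gene of an ER-phagy receptor, was the 1 past the criteria (log2 fold change -1.06, adjusted p = 3.27e-05 by edgeR). That was 6.25% of the list, against 23.1% of all genes. Of 13 genes for autophagosome-lysosome fusion, 7 were lower and 3 higher by the adjusted p (76.9%, against 46.1% of all genes). Plekhm1, the gene of an adaptor that links RAB7 and LC3 to the HOPS tether, fell from 116 ± 3.54 (SD, n = 3) to 48.1 ± 4.98 CPM (SD, n = 4), with a log2 fold change of -1.27 (adjusted p = 1.14e-05 by edgeR). Vps39, a HOPS subunit gene, rose from 67.2 ± 2.25 (SD, n = 3) to 136 ± 13.0 CPM (SD, n = 4), with a log2 fold change of 1.02 (adjusted p = 3.99e-05 by edgeR).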

How the data were processed

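RNA of sorted immature (n = 3) and mature (n = 4) BMDCs was sequenced with a strand-marking (dUTP) kit. The authors deposited whole-number read counts per gene, not normalized, and FPKM values rounded to 2 decimals, in which fragments are divided by transcript length and by the size of the library. The submitters' processing notes name cutadapt 1.9, HISAT2 2.2.1, StringTie 2.1.6, DESeq2, edgeR and the build mm9. The gene coordinates in the table equal those of GENCODE M21 (GRCm38) for 37 of the 40 members, and GRCm38 is used here. The strand setting of the counting is not given in the sources used here.

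Groups came from the labels. Counts were filtered with filterByExpr, scaled by TMM and tested with edgeR 4.0.16 (quasi-likelihood, R 4.3.3, no covariate) over all genes, with Benjamini-Hochberg adjustment. The criteria of the study, a log2 fold change of 1 or more in either direction with adjusted p under 0.05, and the adjusted p alone were both read. CPM values use the TMM-scaled totals. All 40 members are accounted for, and values in every library are given for those past adjusted p 0.05 and changed by 0.5 or more on the log2 scale in either direction. Further pathway genes are named when past the criteria. Members, lists and tests were chosen with earlier results of these data known. Mature replicate 1 as the only mature library, and leaving out libraries for the Gabarap share, were alternatives added after seeing the data. Alternatives were DESeq2 1.42.0, limma 3.58.1 on log2(FPKM + 1) and log2(FPKM + 0.1), upper-quartile scaling, other filters, glmTreat at 1.5-fold, a length-trend offset, a replicate block and leaving out each library. Counts of alternatives under which a call held leave out the fit with 1 mature library, whose spread comes from the immature libraries only. The fits were tested on simulated data. Of 100 genes changed 1.5-fold, edgeR recovered 21, limma 16, the length offset 20, the replicate block 3 and DESeq2 58. Of 100 changed 2.5-fold they recovered 93, 86, 93, 83 and 97. False calls numbered 70 for DESeq2, 6 for the length offset and 5 for each of the others. Only these genes were changed in the simulation, while 46.1% of all genes passed the adjusted p in the data. The adjustment was therefore stricter in the simulation, and its rates of recovery do not carry over to the members. It also held no length tilt and no pairing of libraries, so it did not try the offset and the block on what they are meant for. A member that did not pass may still have changed. Promoters are from RefSeq, and protein sequences were not used here.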

Additional observations from a re-analysis of the deposited data

Results flagged for a closer look

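In each group of 4 mature libraries, the gap between an extreme value and its nearest neighbour was divided by the range of the group and held against Dixon's 95% critical value. Of 45 values compared, 7 exceeded it, where chance flags about 1 in 20 groups, or 2.25 of 45. In 6 of the 7 the library was mature replicate 3. Its CPM was the highest of its group for Atg3 (ratio 0.875), Gabarapl2 (0.870), Gabarap (0.843) and Atg4d (0.839), and the lowest for Ambra1 (0.861) and Epg5 (0.848). For Gabarapl1 (0.845) the library was mature replicate 4, the lowest of its group. The part of transcript length in these values was not tested gene by gene.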

How the results depend on the processing

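All 4 members past the criteria kept their direction and their call under each of the 15 alternatives listed for the main test. The count past the adjusted p alone depended on the libraries, with 12 to 26 members when 1 library was left out. It was 12 without immature replicate 3, 13 without immature replicate 2 and 26 without mature replicate 3. The share of all genes tested moved as well, to 35.4%, 36.1% and 57.4% in these fits. The higher members numbered 3 to 14 (3 without immature replicate 2 or 3, 4 without immature replicate 1, 14 without mature replicate 3). DESeq2 called 23 members, beside 50.8% of all genes, and upper-quartile scaling 22, beside 47%. Limma called 21 with either pseudocount, beside 57.5% of all genes with 1 and 57.1% with 0.1. The fit without a filter called 18, beside 26.3% of all genes. Upper-quartile scaling moved the median of all genes from 0.05 to 0.16, and values under it are to be read against that shift.

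Replicate numbers are shared between the groups, and deviations of same-numbered libraries correlated at 0.029, -0.0011 and 0.014. Immature replicates 1 and 3 correlated best with the mature library of their number, and immature replicate 2 with mature replicate 3 (0.036). Correlations this small, in deviations that also hold the length tilt of mature replicate 3, cannot settle whether libraries were paired. With replicate number as a block, 14 members passed, 3 of them higher, beside 37% of all genes.

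The sign changed for members with small log2 fold changes that passed the adjusted p under none of these 15 alternatives. Under upper-quartile scaling the values were 0.015 for Atg101, 0.076 for Pik3r4, 0.060 for Atg16l1 and 0.013 for Optn. With a minimum FPKM of 1, Pik3r4 was at 0.0105. With limma and a pseudocount of 1 they were 0.048 for Pik3r4, 0.042 for Atg16l1 and 0.0044 for Optn, and with 0.1 they were 0.054, 0.051 and 0.0056. With the block, Atg2a was at -0.0058. With mature replicate 1 alone, where the spread comes from the immature libraries only, they were 0.11 for Pik3r4, 0.018 for Atg16l1, -0.15 for Gabarap and 0.075 for Nbr1. Leaving out 1 library gave -0.077 to 0.098 for Pik3r4, -0.019 to 0.099 for Atg2a, -0.031 to 0.069 for Atg4b, -0.078 to 0.0016 for Atg16l1, -0.10 to 0.17 for Gabarap and -0.17 to 0.020 for Nbr1. The causes were not tested. Depth limited little, since the lowest member count was 347.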
